A study of Homo sapiens with 6 samples.

Results

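The arrays described here are the 2 labelled biological replicate 1 and the 2 labelled biological replicate 3 in a series of 6 expression arrays. In each pair, 1 array came from HEK293T cells that received pNTAP-2×flag-VRTN and 1 from cells that received the empty plasmid. The plasmid carries the coding sequence of pig VRTN, a vertebrate DNA-binding protein, and HEK293T is a human embryonic kidney line that expresses the SV40 large T antigen. All cells were therefore transfected, and total RNA was taken after 24 hours in every sample. Replicate 3 was compared with replicate 1 with the plasmid kept as a block, and the 2 replicate 2 arrays were used to see whether they lay between. The labels do not say what a replicate number stands for: the culture, the transfection, the RNA preparation and the array run cannot be told apart, and neither can the state of the cells and the handling of their RNA.

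Cells that run short of oxygen stabilise the alpha subunits of hypoxia-inducible factor (HIF), which then turns on genes for glucose uptake, glycolysis, blood vessel growth and the removal of mitochondria. In culture the oxygen, glucose and amino acids at the cell layer depend on how dense the cells are and on when the medium was last changed. ATF4 drives a separate response to a shortage of amino acids, MTF1 induces metallothioneins when free zinc is high, and growing cells make many nucleolar factors that build ribosomes.

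Each array gave a log2 signal from the RMA method for 29183 tested probe sets, and their medians lay between 6.43 and 6.47. Levels below are log2 signals, given for the VRTN array first and the empty vector array second. Differences are replicate 3 minus replicate 1 on the log2 scale, averaged over both plasmids. A probe set or gene is called when its adjusted p in the limma fit across all tested probe sets was under 0.05. VRTN was higher in the VRTN arrays of every replicate number, at 6.25 and 5.19 in replicate 1, 6.22 and 4.98 in replicate 2, and 6.07 and 5.14 in replicate 3. It did not differ between replicates 3 and 1 beyond the test (-0.12, 95% interval -0.32 to 0.09; adjusted p = 0.484). The array is made for human genes, and how well it reads pig VRTN was not measured. Of the 12 listed markers of HEK293T cells, such as VIM, CDH2 and LIN28B, 0 were called, and their mean level was 8.13 to 8.20 over the 6 arrays. The 8 fibroblast markers (mean level 5.07 to 5.19), 6 blood cell markers (4.97 to 5.10) and 5 squamous epithelial markers (6.23 to 6.32) held 0 calls too. Over all genes 4.26% were called, so 0 calls in lists this small says little. DCN, LUM, POSTN, PTPRC, CD3E and LYZ were dimmer than the middle negative control, described further down and called the control median here, on all 6 arrays. The control median was 5.36 to 6.13. The mean levels of the fibroblast and blood cell lists lay under it on every array, and that of the squamous list lay above it. VRTN was under the control median on 3 arrays, those of the empty vector. In bulk RNA, fewer cells of a type and less RNA in each cell cannot be told apart.

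Replicates 3 and 1 differed at 1531 of 29183 probe sets, or 5.25%. The signal was higher in replicate 3 for 995 (3.41%) and higher in replicate 1 for 536 (1.84%). Counted by gene, with 1 probe set for each of 18417 symbols, 784 genes were called (4.26%), of which 379 were higher in replicate 3 (2.06%) and 405 in replicate 1 (2.20%). Without adjustment, 6766 probe sets had a p under 0.05 (23.2%). Differences of at least 2-fold, called or not, were found at 130 probe sets, 114 of them higher in replicate 3. The largest in each direction belonged to probe sets with no gene symbol in the annotation, 1 at 2.21 (SE 0.12) and 1 at -1.92 (SE 0.19). The count of calls depended on single arrays, which are named VRTN 1, VRTN 3, vector 1 and vector 3 from here on by plasmid and replicate number. Leaving out VRTN 1 gave 290 calls, leaving out VRTN 3 gave 352, vector 1 gave 21 and vector 3 gave 354. Those fits use the other 5 arrays, replicate 2 included, and 1 array stands alone for its number. HILPDA, BHLHE40, ANKRD37, CXCR4, SNORD75 and PCID2, described below, were the genes of this text called with vector 1 left out.

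Among called probe sets the difference ran the same way with both plasmids, which follows from the call. The fit takes its spread in part from how far the 2 pairs differ, so a probe set with opposite signs could hardly be called. All 1531 called probe sets had the same direction in the VRTN pair and in the empty vector pair, against 66.2% of all tested probe sets. The median size of the difference among the called was 0.54 in either pair. At 1516 of them both replicate 3 arrays lay outside the range of both replicate 1 arrays, while the same was true of 14893 of all tested probe sets (51.0%). By gene the shares were 779 of 784 called and 9672 of 18417 tested (52.5%), so this count by itself sets few genes apart. DNAJB1, a co-chaperone of HSP70, read 9.94 and 8.61 in replicate 1, 9.83 and 8.37 in replicate 2, and 10.21 and 8.38 in replicate 3. Its levels separated by plasmid and not by number, and replicates 3 and 1 differed by 0.02 (95% interval -0.29 to 0.32; adjusted p = 0.959). HSPH1, a nucleotide exchange factor of HSP70, differed by -0.16 (-0.39 to 0.07).

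**Figure D1:**
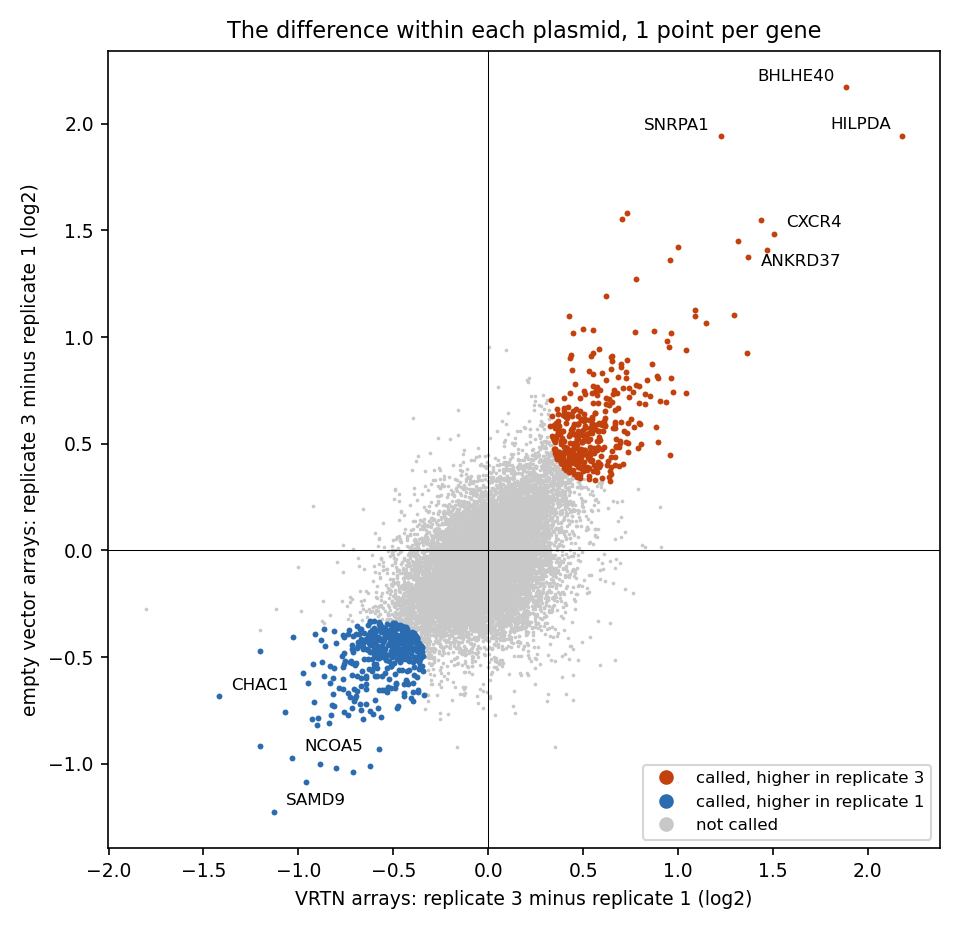
Difference between replicate 3 and replicate 1 in the VRTN arrays (horizontal axis, log2) and in the empty vector arrays (vertical axis, log2), 1 point for each of 18417 genes. The 379 genes called higher in replicate 3 are orange, the 405 called higher in replicate 1 blue and the others grey, and HILPDA and BHLHE40 stand farthest out at the upper right.

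HIF target genes outside glycolysis were the list with the highest median difference of the 35 described. Of 27 measured members, 16 were called higher in replicate 3 and 0 in replicate 1, where 2.06% and 2.20% of all genes were, and the list's median difference was 0.52, against -0.04 over all genes. The median was 0.49 in the VRTN pair and 0.51 in the empty vector pair. Under 3 other scalings of the arrays the list also had 16 calls, and its median lay between 0.52 and 0.53. It had 4 calls with VRTN 1 left out, 9 with VRTN 3, 3 with vector 1 and 10 with vector 3 left out, at medians of 0.47 to 0.54.

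HILPDA, a hypoxia-induced protein of the lipid droplet surface, had the largest difference of any named gene. It read 8.50 and 8.73 in replicate 1, 9.98 and 10.20 in replicate 2, and 10.68 and 10.68 in replicate 3. The replicate 3 arrays were thus about 4-fold above the replicate 1 arrays with either plasmid, and the replicate 2 arrays lay between. The difference was 2.06 (SE 0.095, 95% interval 1.83 to 2.29; adjusted p = 0.00205), a fold of 4.18. BHLHE40, a transcriptional repressor that answers to hypoxia and to the circadian clock, read 8.47 and 8.13 in replicate 1, 9.94 and 10.12 in replicate 2, and 10.35 and 10.30 in replicate 3. Replicate 2 stood nearer to replicate 3 than to replicate 1 here. The difference was 2.03 (SE 0.10; adjusted p = 0.00205). ANKRD37, an ankyrin repeat protein induced by HIF, read 6.45 and 6.63, 7.46 and 7.67, and 7.82 and 8.0 in replicates 1, 2 and 3. It differed by 1.37 (SE 0.083; adjusted p = 0.0021).

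Called members with metabolic roles followed. DDIT4, an inhibitor of mTORC1, read 8.87 and 8.77 in replicate 1 and 9.91 and 9.71 in replicate 3, a difference of 0.99 (SE 0.085; adjusted p = 0.00581). PDK1, the kinase that keeps pyruvate out of mitochondria, read 9.56 and 9.59 against 10.42 and 10.46, a difference of 0.87 (SE 0.083; adjusted p = 0.00698). The arrays of each replicate number lay closer to each other than to any array of the other number for both genes. BNIP3, a mitophagy receptor, was at 10.85 and 10.68 in replicate 1 and at 11.33 and 11.24 in replicate 3 (0.52; adjusted p = 0.0257). INSIG2, which holds back the sterol sensor SCAP, differed by 0.68 and FAM162A, a mitochondrial protein, by 0.57.

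Members that act outside the cell or feed back on HIF were also called. LOX, which cross-links collagen, read 7.71 and 7.94 in replicate 1 and 8.50 and 8.72 in replicate 3 (0.78; adjusted p = 0.00854). P4HA1, a collagen prolyl hydroxylase, differed by 0.73 (adjusted p = 0.0103), and VEGFA, the growth factor of blood vessels, by 0.50 (adjusted p = 0.027). EGLN3, an oxygen-dependent hydroxylase that marks HIF for destruction, read 7.44 and 7.51 against 7.93 and 7.94, a difference of 0.46 (adjusted p = 0.0335). The remaining called members were NDRG1 (0.89), RORA (0.64), BHLHE41 (0.60) and PPFIA4 (0.54). Among the 11 not called, MXI1 (0.40), KDM3A (0.39) and BNIP3L (0.38) had adjusted p of 0.0510, 0.0506 and 0.0532. ADM (0.01), CA12 (0.03) and ANGPTL4 (-0.14), which are induced by HIF in other settings, showed no difference past the test. The 7 measured HIF subunits and regulators held 0 calls, with HIF1A itself at -0.03 (95% interval -0.23 to 0.17) and ARNT at 0.19 (-0.02 to 0.39). HIF protein was not measured.

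**Figure D2:**
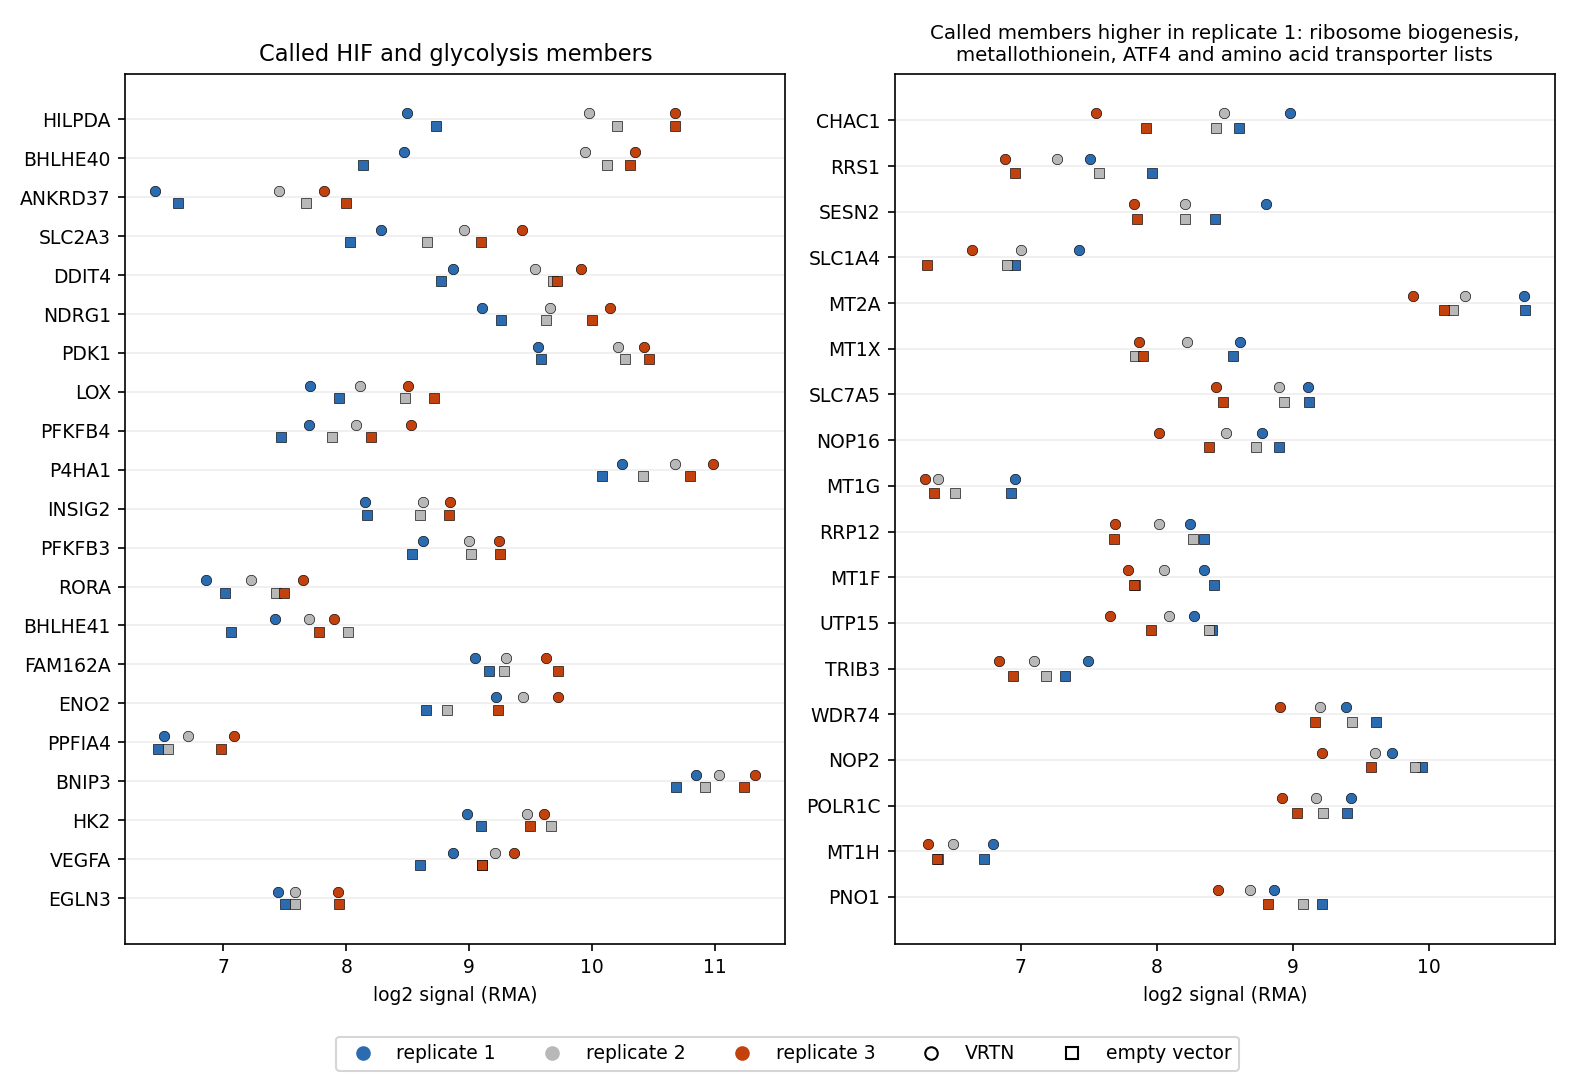
Log2 signal (horizontal axis) of called list members in each of the 6 arrays, circles for VRTN and squares for the empty vector, blue for replicate 1, grey for replicate 2 and orange for replicate 3. On the left, 21 members of the HIF and glycolysis lists have both replicate 3 arrays to the right of the replicate 1 array of the same plasmid. On the right, the members of the ribosome biogenesis, metallothionein, ATF4 and amino acid transporter lists that were called higher in replicate 1 are shown, with the order turned.

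Glucose uptake and glycolysis had a smaller median difference. Of 20 measured members 5 were called, all higher in replicate 3, against 2.06% of all genes. The median difference was 0.20. SLC2A3, the high-affinity glucose transporter GLUT3, read 8.28 and 8.03 in replicate 1, 8.96 and 8.66 in replicate 2, and 9.43 and 9.10 in replicate 3. It differed by 1.11 (SE 0.085; adjusted p = 0.00434), while SLC2A1, the GLUT1 transporter, differed by 0.15 (95% interval -0.06 to 0.35; adjusted p = 0.361). PFKFB4 (0.78) and PFKFB3 (0.67) make and break fructose 2,6-bisphosphate, the activator of phosphofructokinase, and both were called, whereas PFKFB2 of the same family was at -0.22 (adjusted p = 0.193). ENO2, the neuronal enolase, read 9.22 and 8.65 in replicate 1 and 9.73 and 9.23 in replicate 3, and differed by 0.55 (SE 0.084; adjusted p = 0.023). Its levels separated by number within each plasmid, but VRTN 1 and vector 3 lay at nearly the same level. HK2, which starts glycolysis, differed by 0.51 (adjusted p = 0.0346). The abundant enzymes were not called, for example LDHA at 0.25 (95% interval 0.05 to 0.44; adjusted p = 0.146). The list had 1 call with VRTN 1 left out, 3 with VRTN 3, 0 with vector 1 and 2 with vector 3.

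The promoters of the 3 HIF targets with the largest differences are of interest because HIF binds a short core sequence, and those of BHLHE40 and ANKRD37 are shown (RefSeq, GRCh38.p14, 250 bases before to 50 after the gene start). Capitals mark matches of ACGTG or GCGTG on either strand. BHLHE40 lies at chr3:4979187-4979486, plus strand, and ANKRD37 at chr4:185396591-185396890, plus strand.
BHLHE40: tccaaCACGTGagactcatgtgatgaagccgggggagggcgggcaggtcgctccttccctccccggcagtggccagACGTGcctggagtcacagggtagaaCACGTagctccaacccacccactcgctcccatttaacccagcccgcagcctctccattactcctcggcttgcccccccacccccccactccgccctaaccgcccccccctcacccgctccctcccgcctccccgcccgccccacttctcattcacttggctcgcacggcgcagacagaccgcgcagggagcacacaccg
ANKRD37: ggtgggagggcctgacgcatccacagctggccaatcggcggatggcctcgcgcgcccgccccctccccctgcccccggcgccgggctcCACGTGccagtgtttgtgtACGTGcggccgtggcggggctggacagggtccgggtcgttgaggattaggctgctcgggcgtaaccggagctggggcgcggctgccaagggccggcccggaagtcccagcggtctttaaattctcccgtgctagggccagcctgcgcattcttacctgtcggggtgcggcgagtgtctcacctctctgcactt
The table holds no entry for HILPDA. BHLHE40 had 4 matches and ANKRD37 had 3, where CACGTG, the E-box, counts on both strands since it contains ACGTG in each. A match was found in 17 of 22 list members with a promoter sequence (77.3%) and in 56.7% of the 14237 measured genes that have one. The share was 65.9% of 270 genes called higher in replicate 3 and 67.4% of 337 called higher in replicate 1. In lists that went the other way, a match was found in 23 of 24 ribosome biogenesis promoters (95.8%) and in 6 of 7 of the metallothionein list (85.7%). A match is a run of letters, and binding of HIF was not measured.

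Several of the largest differences belonged to genes outside the lists. CXCR4, a chemokine receptor, read 6.99 and 6.77 in replicate 1, 7.96 and 7.82 in replicate 2, and 8.50 and 8.25 in replicate 3, a difference of 1.5 (SE 0.083; adjusted p = 0.00205). ADAMTS1, a secreted protease, was at 8.91 and 9.30 against 10.27 and 10.23 (1.15; adjusted p = 0.00808). ZC3H6, a zinc finger gene, differed by 1.2 and the pseudogene ADCY10P1 by 1.16. Probe sets of 1 gene did not always move together. PCID2, an mRNA export factor, differed by 1.44 (SE 0.084; adjusted p = 0.00205) at the probe set with the higher mean and by 0.07 (adjusted p = 0.673) at the other. SNRPA1, a protein of the U2 spliceosome particle, was at 6.98 and 6.31 in replicate 1 and at 8.20 and 8.25 in replicate 3, a difference of 1.58 (SE 0.16; adjusted p = 0.00794).

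Genes for ribosome assembly had the lowest median of the 35 lists. Of 30 measured members 8 were called higher in replicate 1 and 0 in replicate 3, against 2.20% and 2.06% of all genes. The median difference was -0.32 in the 4 arrays, also -0.32 in the VRTN pair and -0.30 in the empty vector pair. RRS1, an assembly factor of the large ribosomal subunit, read 7.51 and 7.97 in replicate 1, 7.26 and 7.58 in replicate 2, and 6.89 and 6.96 in replicate 3 (-0.82, SE 0.11; adjusted p = 0.017). Both replicate 3 arrays lay below both replicate 1 arrays. NOP16, another large-subunit factor, was at 8.77 and 8.90 against 8.02 and 8.38 (-0.64; adjusted p = 0.0212), and RRP12, needed to export both subunits, at 8.24 and 8.34 against 7.69 and 7.69 (-0.60; adjusted p = 0.0185). The other called members were UTP15 (-0.53), WDR74 (-0.47), NOP2 (-0.45), POLR1C (-0.44), a subunit of RNA polymerases I and III, and PNO1 (-0.40). NOL6, a nucleolar protein outside the list, read 7.77 and 7.84 in replicate 1 and 6.93 and 7.03 in replicate 3 (-0.82; adjusted p = 0.00794). The 48 measured cytosolic ribosomal protein genes held 0 calls and had a median of 0.08, or 0.03 to 0.09 under 3 other scalings. Of the 48, 43 had a positive difference, as did 7275 of all 18417 genes. Other scalings called 4 to 5 assembly members, at medians of -0.31 to -0.29. There were 0 calls with VRTN 1 left out, 2 with VRTN 3, 0 with vector 1 and 1 with vector 3. An E-box (CACGTG), which many growth genes carry, was found in 11 of 24 promoters of this list (45.8%), against 8.88% of all measured genes. The share was 16.9% of those called higher in replicate 1 and 11.5% of those called higher in replicate 3. In lists that went the other way it was found in 5 of 22 HIF target promoters (22.7%) and 3 of 18 glycolysis promoters (16.7%).

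Of 12 measured metallothioneins and other zinc-response genes 5 were called, all higher in replicate 1, against 2.20% of all genes. The median was -0.30. The 5 are metallothioneins, small proteins that bind zinc and copper. MT2A read 10.70 and 10.70 in replicate 1, 10.27 and 10.18 in replicate 2, and 9.88 and 10.11 in replicate 3 (-0.71, SE 0.094; adjusted p = 0.0153). Its other probe sets differed by -0.77 and -0.69 and were both called. MT1X differed by -0.70 (adjusted p = 0.0115), MT1G by -0.62, MT1F by -0.57 and MT1H by -0.41. These genes are close copies in 1 cluster on chromosome 16 and may share probes, so they are not 5 separate observations. Leaving out VRTN 1, VRTN 3 or vector 1 gave 0 calls, and leaving out vector 3 gave 1.

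The MT2A promoter (chr16:56608334-56608633, plus strand, RefSeq, GRCh38.p14) is printed because MTF1 binds the metal response core, here TGCACNC or TGCGCNC on either strand, in capitals.
MT2A: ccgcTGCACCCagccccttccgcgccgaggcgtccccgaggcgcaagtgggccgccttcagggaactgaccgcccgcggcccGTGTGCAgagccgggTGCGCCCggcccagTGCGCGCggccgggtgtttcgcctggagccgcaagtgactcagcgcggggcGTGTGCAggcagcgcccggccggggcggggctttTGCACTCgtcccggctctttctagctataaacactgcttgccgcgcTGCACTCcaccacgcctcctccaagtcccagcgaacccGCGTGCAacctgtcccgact
It held 8 matches. A match was found in 5 of the 7 list members with a promoter sequence and in 35% of all measured genes. The share was 43.6% of genes called higher in replicate 1, 41.1% of those called higher in replicate 3 and 58.3% of the ribosome biogenesis promoters. This motif was chosen after the values were seen.

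Targets of ATF4 were mostly lower in replicate 3. Of 27 measured, 20 had a negative difference, as did 11142 of all 18417 genes, and the list's median was -0.14. Called were 3 higher in replicate 1 and 1 in replicate 3, against 2.20% and 2.06% of all genes. CHAC1, an enzyme that breaks down glutathione, read 8.98 and 8.61 in replicate 1, 8.49 and 8.44 in replicate 2, and 7.56 and 7.92 in replicate 3 (-1.05, SE 0.17; adjusted p = 0.0243). SESN2, a leucine sensor upstream of mTORC1, was at 8.81 and 8.43 against 7.83 and 7.85 (-0.78; adjusted p = 0.0203), and TRIB3, a pseudokinase that feeds back on ATF4, differed by -0.52 (adjusted p = 0.0369). KLHL24, a ubiquitin ligase adaptor, went the other way, at 7.73 and 7.73 against 8.58 and 8.45 (0.79; adjusted p = 0.00933). Of 11 measured amino acid transporters 2 were called, both higher in replicate 1: SLC1A4, a carrier of alanine, serine and cysteine (-0.72; adjusted p = 0.0121), and SLC7A5, a carrier of leucine (-0.65; adjusted p = 0.0136). SLC7A11, the cystine carrier, read 7.55 and 7.95 in replicate 1, 7.77 and 8.58 in replicate 2, and 6.99 and 7.69 in replicate 3. Within each plasmid its highest array was that of replicate 2. The difference between replicates 3 and 1 was -0.41 (95% interval -0.66 to -0.17; adjusted p = 0.072). The 19 measured aminoacyl-tRNA synthetases held 0 calls, at a median of -0.11. Of the ATF4 targets 0 were called higher in replicate 1 with VRTN 1, VRTN 3 or vector 1 left out, and 2 with vector 3, while the transporters had 0 calls in the first 3 cases and 1 in the last. KLHL24 was not called with VRTN 1 or vector 1 left out. Quantile scaling left 1 ATF4 target called higher in replicate 1. The CHAC1 promoter (chr15:40953221-40953520, plus strand, RefSeq, GRCh38.p14) carries 1 match of the ATF4 composite element TGATGNAAN, searched on either strand and here read on the minus strand, in capitals, and such a match was found in 4 of 22 ATF4 list members with a promoter sequence (18.2%) and in 2.54% of all measured genes. The share was 1.48% of genes called higher in replicate 1 and 1.11% of those called higher in replicate 3.
CHAC1: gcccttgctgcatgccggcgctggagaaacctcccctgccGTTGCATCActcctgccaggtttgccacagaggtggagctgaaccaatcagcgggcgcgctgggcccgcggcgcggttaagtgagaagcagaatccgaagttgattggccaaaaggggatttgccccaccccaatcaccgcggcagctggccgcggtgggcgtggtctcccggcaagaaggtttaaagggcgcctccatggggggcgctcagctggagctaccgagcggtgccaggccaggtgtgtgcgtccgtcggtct

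Sterol genes were called in both directions. Of 21 measured, 4 were called higher in replicate 3 and 1 in replicate 1, against 2.06% and 2.20% of all genes. The list's median was 0.04. INSIG1, a sterol feedback protein, read 8.54 and 8.60 in replicate 1 and 9.43 and 9.42 in replicate 3 (0.85; adjusted p = 0.00748). The synthesis enzymes SQLE (0.60), MSMO1 (0.57) and IDI1 (0.48) were also higher in replicate 3, and TM7SF2, a sterol reductase, was higher in replicate 1 (-0.51; adjusted p = 0.0287). With VRTN 1, VRTN 3 or vector 3 left out there was 1 call higher in replicate 3, with vector 1 there were 0, and TM7SF2 was called in none of these fits.

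Genes of the G1/S transition, which license and start DNA replication, had a median difference of -0.19. Of 37 measured 4 were called, all higher in replicate 1, against 2.20% of all genes. They were CCNE2 (-0.61; adjusted p = 0.0201), UHRF1 (-0.45), CCND1 (-0.45) and E2F8 (-0.42). CCNE2, the cyclin E2 gene, read 8.93 and 8.90 in replicate 1, 8.77 and 8.72 in replicate 2, and 8.23 and 8.37 in replicate 3. The replicate 2 arrays were nearer to replicate 1 for this gene. A second UHRF1 probe set differed by -0.13 and was not called. Replication-dependent histones, made in S phase, had 3 of 45 members called higher in replicate 1 (H2AC4, -0.59; H3C12, -0.51; H2BC17, -0.48), and as near-identical copies they can share probes. The 34 measured G2/M genes held 0 calls, with a median of 0.04. With single arrays left out, the G1/S list held 0 or 1 call, the 1 being with vector 3 left out, and the histone list held 0. Cyclic loess and quantile scaling each left 1 G1/S call.

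Among p53 targets, 5 of 21 measured were called higher in replicate 1 and 0 in replicate 3, against 2.20% and 2.06% of all genes. The list's median was -0.25. Large T antigen binds p53 in these cells. SESN2, given above, is 1 of the 5, and the others were the death receptor FAS (-0.52; adjusted p = 0.0403), the kinase PLK3 (-0.47), the oxidoreductase TP53I3 (-0.45) and TIGAR, which lowers fructose 2,6-bisphosphate (-0.43). FAS read 8.56 and 8.36 in replicate 1 and 7.89 and 7.99 in replicate 3. Leaving out VRTN 1, VRTN 3 or vector 1 gave 0 calls and leaving out vector 3 gave 1, while cyclic loess and quantile scaling each left 1.

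Interferon-stimulated genes had 3 of 40 members called, all higher in replicate 1, against 2.20% of all genes. SAMD9, a host restriction factor of poxviruses, read 6.46 and 6.22 in replicate 1, 6.12 and 5.40 in replicate 2, and 5.33 and 4.99 in replicate 3 (-1.18, SE 0.085; adjusted p = 0.00373), the largest difference in this direction among named genes. It was under the control median on 3 of the 6 arrays, and PARP9 (-0.59) on 5. TAP1, a peptide transporter of antigen presentation, differed by -0.43 (adjusted p = 0.0395). The list held 1 call with VRTN 1 or VRTN 3 left out, 0 with vector 1 and 4 with vector 3. Cyclic loess and quantile scaling each left 1 call.

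Stress lists held 0 to 3 calls each, where 2.06% of all genes were called higher in replicate 3 and 2.20% in replicate 1. Of 19 NRF2 targets 3 were called higher in replicate 1, namely HMOX1, which degrades haem (-0.51), KEAP1, the inhibitor of NRF2 (-0.52), and SRXN1, which repairs peroxiredoxins (-0.46). Of 22 heat shock genes 3 were called in the same direction: the co-chaperones DNAJA1 (-0.56) and BAG3 (-0.47), and HSPA14 (-0.43) of the HSP70 family. Of 22 genes of the endoplasmic reticulum stress list 1 was called, the chaperone HSPA5, at 10.84 and 10.85 in replicate 1 against 11.28 and 11.31 in replicate 3 (0.45; adjusted p = 0.0347). With any 1 array left out, the NRF2 and endoplasmic reticulum lists held 0 calls, and the heat shock list held 0 except for 1 call with vector 3 left out. The heat shock list had 1 call under each of 3 other scalings, and HSPA5 was not called under cyclic loess or quantile scaling.

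The remaining lists held at most 2 calls in a direction, which are given as values of single genes. As 2.06% of all genes were called higher in replicate 3 and 2.20% in replicate 1, 1 call says little about a list. HES1, a Notch target, read 8.68 and 8.75 in replicate 1, 8.99 and 9.19 in replicate 2, and 9.26 and 9.48 in replicate 3 (0.65; adjusted p = 0.0165), and it was the 1 call among 10 Notch targets. ID2, an inhibitor of helix-loop-helix factors, was the 1 call among 17 TGF-beta targets (0.51). ANKRD1, a muscle and YAP target gene, was the 1 call among 22 YAP targets, at 7.2 and 7.23 in replicate 1 against 6.49 and 6.19 in replicate 3 (-0.88; adjusted p = 0.0115). Among 25 immediate early genes, IER3 (0.50) and FOSB (0.48) were higher in replicate 3 and SRF (-0.45) in replicate 1. FOSB was highest in replicate 2, at 7.82 and 8.13 against 7.07 and 6.83 in replicate 1 and 7.46 and 7.39 in replicate 3. NFKB1 (-0.46) was called among 16 genes of the inflammatory list, beside IER3, which that list shares. The other calls were NEU1 (-0.48) of 23 lysosome genes and UQCRB (0.58) of 44 oxidative phosphorylation genes, the latter under the control median on 4 arrays and, as 1 of 44, near the 2.06% of all genes called in that direction. TXNIP, which answers to glucose, was not called (0.31, 95% interval 0.05 to 0.58; adjusted p = 0.159). The lists of fatty acid synthesis, glucose sensing, FOXO targets, cyclin-dependent kinase inhibitors, WNT targets and extracellular matrix held 0 calls. With 1 array left out, ANKRD1 was called except with vector 1 left out, HES1 and UQCRB were called with VRTN 3 left out alone, and the other genes of this paragraph were not called. Cyclic loess and quantile scaling gave 0 calls in the TGF-beta, oxidative phosphorylation and lysosome lists, and 0 higher in replicate 1 in the inflammatory and immediate early lists. Median centring gave 0 in the lysosome list and 0 higher in replicate 1 in the inflammatory list, and quantile scaling left 1 of the immediate early calls higher in replicate 3.

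**Figure D3:**
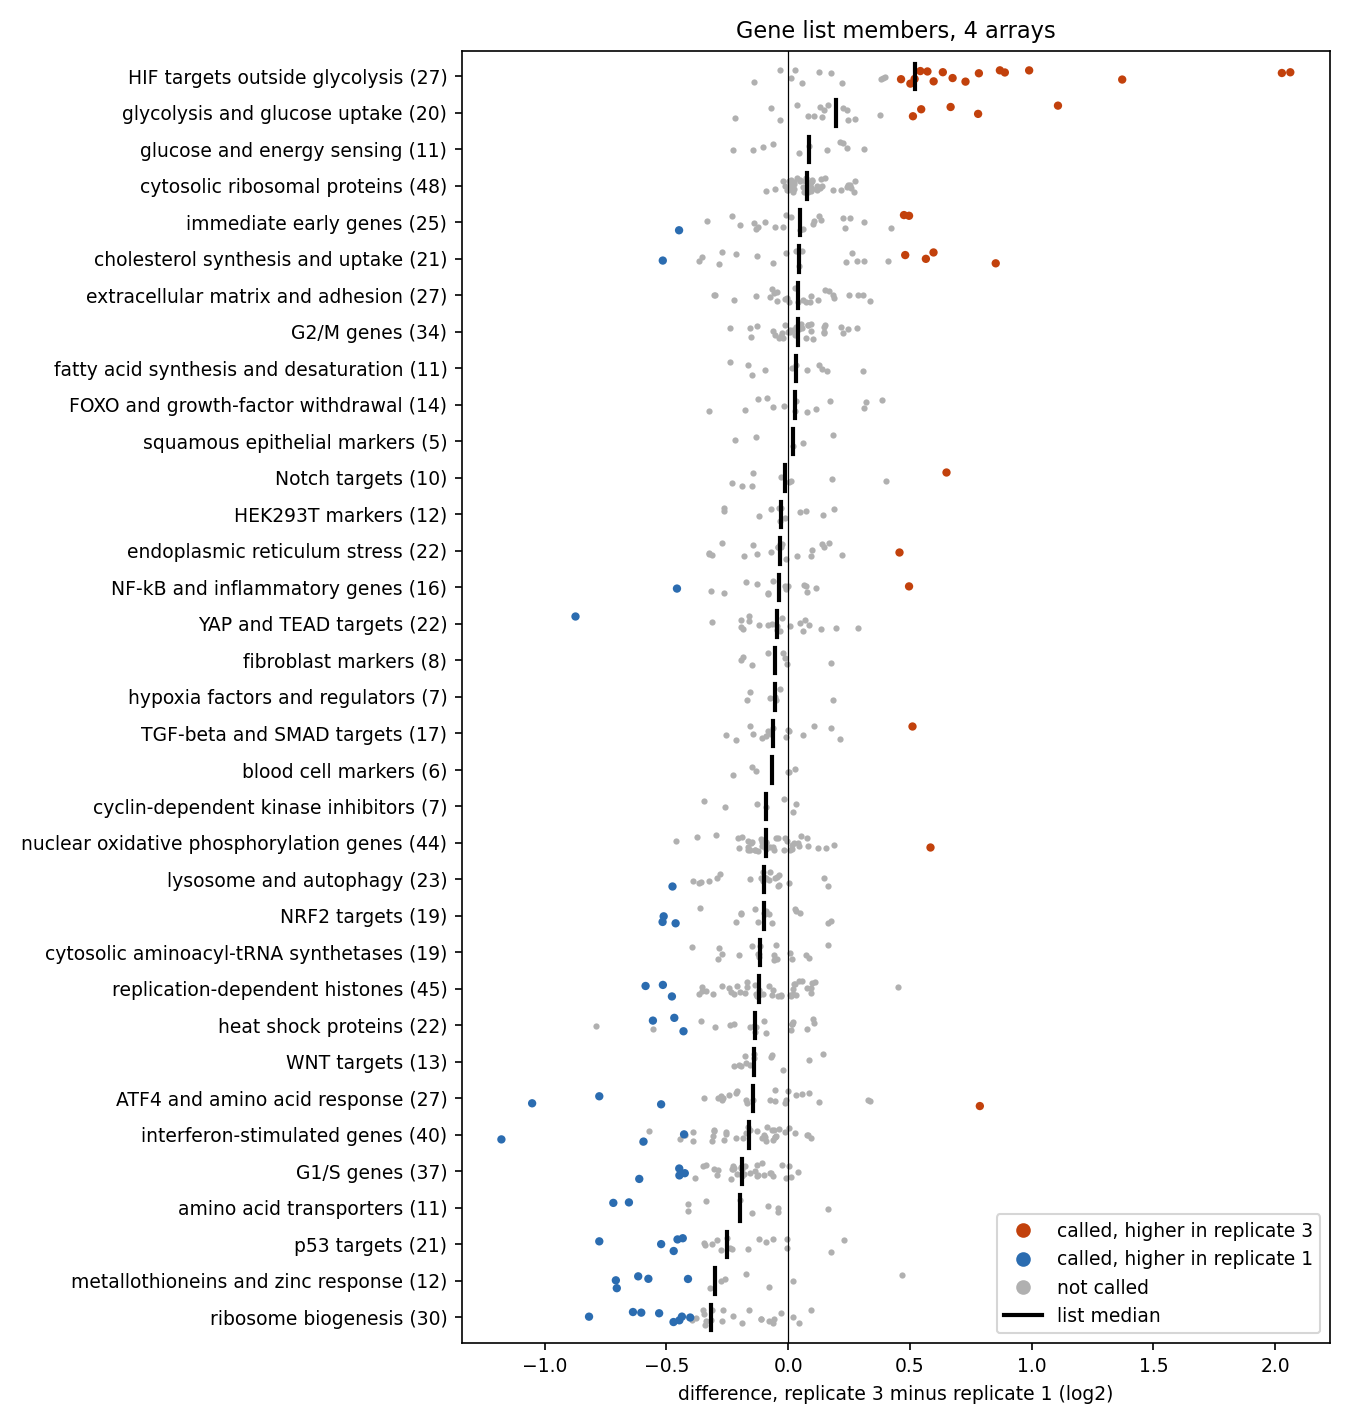
Difference between replicate 3 and replicate 1 (horizontal axis, log2) for each measured member of 35 gene lists, with the number measured in brackets. Coloured points are called members and black bars list medians, which run from -0.32 for ribosome biogenesis to 0.52 for HIF targets outside glycolysis.

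Further genes higher in replicate 1 had roles in transcription and modification. PPP1R10, a phosphatase subunit of the polymerase II termination machinery, was at 9.39 and 9.25 in replicate 1, 9.09 and 8.76 in replicate 2, and 8.43 and 8.17 in replicate 3 (-1.02, SE 0.087; adjusted p = 0.00536), with identical values at 3 probe sets. NCOA5, a nuclear receptor coactivator, read 8.95 and 8.83 against 7.92 and 7.86 (-1.0; adjusted p = 0.00536). DPH2, which makes the diphthamide of elongation factor 2, differed by -0.84, LCMT2, which modifies a transfer RNA base, by -0.86 and the olfactory receptor gene OR2B6, under the control median on 2 arrays, by -0.84. Zinc finger genes named ZNF were often among these genes, a class chosen after the values were seen: of 494 measured, 34 were called higher in replicate 1 (6.88%, against 2.20% of all genes) and 9 in replicate 3 (1.82%). ZNF468 read 8.17 and 8.10 in replicate 1, 7.51 and 7.70 in replicate 2, and 6.97 and 7.18 in replicate 3 (-1.06, SE 0.10; adjusted p = 0.00686). ZNF304 (-0.94), ZNF230 (-0.91) and ZNF134 (-0.86) followed, of which ZNF230 was under the control median on 5 arrays and ZNF304 on 2. These genes lie in clusters of related copies, and shared probes cannot be told apart from separate changes. The class had 15 to 26 calls higher in replicate 1 under the other scalings, 4 with VRTN 1 left out, 5 with VRTN 3, 0 with vector 1 and 11 with vector 3.

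Small nucleolar RNAs were another class chosen after the values were seen. Of 178 snoRNA probe sets, 19 were called higher in replicate 3 (10.7%, against 3.41% of all tested probe sets) and 1 in replicate 1. They guide chemical changes of ribosomal RNA and are cut from introns of host genes. SNORD75 read 7.37 and 7.54 in replicate 1, 8.45 and 8.64 in replicate 2, and 8.81 and 9.09 in replicate 3 (1.49, SE 0.086; adjusted p = 0.00205). SNORD50B (1.38), SNORA29 (1.21), SNORD77 (1.13) and SNORD20 (1.03) followed, with SNORD20 under the control median on all 6 arrays and SNORD77 on 4. The 14 called snoRNAs with a measured host had a median of 0.64, and their 12 host genes ranged from -0.30 to 0.44, with a median over the snoRNAs of 0.01. These snoRNAs were picked by their call and the hosts were not, so smaller differences of the hosts are built in. Over all 77 snoRNAs with a measured host, called or not, the median was 0.11, and that of their hosts was 0.02. SNORD75, SNORD50B and SNORD77 have no measured host and are outside this comparison. Among the hosts, RABGGTB was the 1 called (0.44; adjusted p = 0.0376), while TCP1, host of SNORA29, was at -0.10. The class had 15 to 19 calls higher in replicate 3 under the other scalings, 7 with VRTN 1 left out, 8 with VRTN 3, 1 with vector 1 and 6 with vector 3. The 3 vault RNAs, short polymerase III transcripts, went the other way: VTRNA1-1 (-0.91), VTRNA1-2 (-0.73) and VTRNA1-3 (-0.70) were all called higher in replicate 1, and the first 2 were under the control median on 4 arrays each. With VRTN 3 or vector 3 left out 1 of them was called, and with VRTN 1 or vector 1 there were 0. MALAT1, an abundant nuclear long RNA, read 12.03 and 11.42 in replicate 1 and 12.58 and 12.35 in replicate 3 (0.74; adjusted p = 0.0213).

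Among 173 miRNA gene probe sets 6 were called, all higher in replicate 3. That share, 3.47%, was near the 3.41% of all tested probe sets, so the count says nothing particular about miRNAs, and the 6 are described one by one. Mature sequences from RefSeq (GRCh38.p14) are given for 1 arm of each, since a shared seed would point to shared targets, with the seed (bases 2 to 8) in capitals. Their names are those of the miRNA genes MIR186, MIR15B, MIR196A2, MIR221, MIR222 and MIRLET7F1.
hsa-miR-186-3p: gCCCAAAGgugaauuuuuuggg
hsa-miR-15b-5p: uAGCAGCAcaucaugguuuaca
hsa-miR-196a-5p: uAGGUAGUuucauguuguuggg
hsa-miR-221-3p: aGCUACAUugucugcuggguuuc
hsa-miR-222-3p: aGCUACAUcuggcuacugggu
hsa-let-7f-5p: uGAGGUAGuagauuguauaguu
The arms of MIR221 and MIR222, neighbours on the X chromosome, share a seed, and the other 4 differ from it and from each other. The seeds of hsa-miR-196a-5p and hsa-let-7f-5p both hold AGGUAG, shifted by 1 base. MIR221 read 6.60 and 6.51 in replicate 1, 6.91 and 7.15 in replicate 2, and 7.25 and 7.21 in replicate 3 (0.67, SE 0.084; adjusted p = 0.0126), and MIR222 differed by 0.41 (adjusted p = 0.0452). MIR186 differed by 1.16 (SE 0.19), MIR15B by 0.76, MIR196A2 by 0.58 and MIRLET7F1 by 0.50. MIR15B, MIR196A2 and MIRLET7F1 were under the control median on all 6 arrays, and MIR186 and MIR222 on 5. Other scalings called 3 to 6 miRNA genes, leaving out VRTN 1 or VRTN 3 gave 2, and leaving out vector 1 or vector 3 gave 0. Whether the mature RNA, its precursor or the host transcript gave these signals was not measured.

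Control probe sets moved with the replicate number too. On this array type negative control probe sets lie in introns of broadly expressed genes, and positive controls in their exons. The median of 2904 negative controls was 5.59 and 5.36 in replicate 1, 5.90 and 5.92 in replicate 2, and 6.06 and 6.13 in replicate 3, so it was higher in replicate 3 by 0.47 in the VRTN pair and by 0.76 in the empty vector pair. Of these probe sets 67.6% were higher in replicate 3 with both plasmids, against 28.0% of the tested ones. The median of 1195 positive controls differed by -0.03 and -0.01. The 9 bacterial spikes, added at hybridisation, were on average higher by 0.15 and 0.16, and all 9 were higher with both plasmids. The 4 poly(A) spikes, added before labelling, were higher by 0.10 and 0.04. The part of the intronic signal and of the spikes in the calls given above was not tested. Beside the calls higher in replicate 3, probe sets with no symbol had 452 of 7971 called in that direction (5.67%), those with several symbols 109 of 1752 (6.22%) and those with 1 symbol 434 of 19460 (2.23%).

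**Figure D4:**
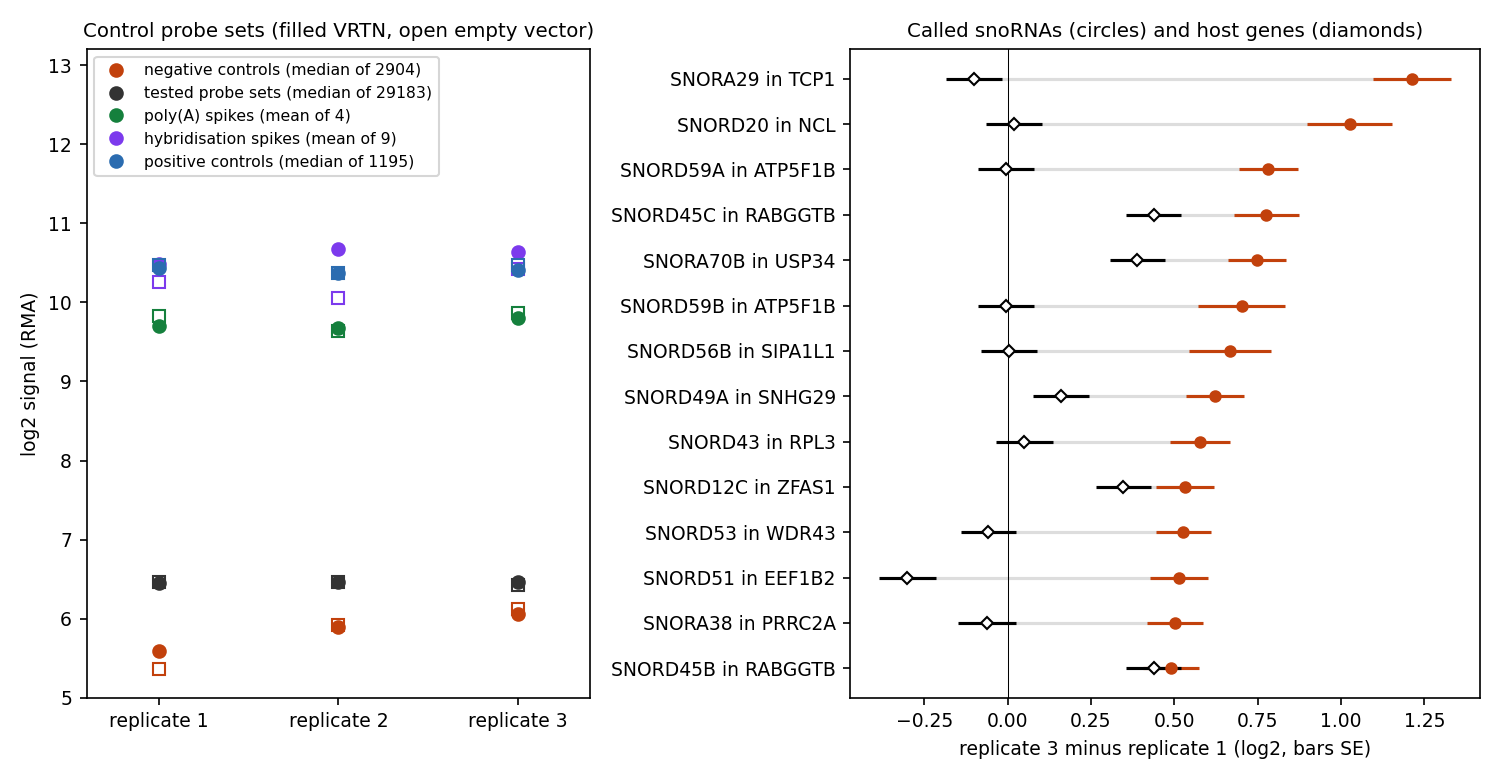
Left, log2 signal of control and tested probe sets in each array by replicate number, filled for VRTN and open for the empty vector, where the negative control median is the one that separates the numbers most. Right, difference between replicate 3 and replicate 1 (log2, bars SE of the fit) for the 14 called snoRNAs with a measured host (circles) and for their hosts (diamonds), most of which lie near 0.

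The replicate 2 arrays lay between the others for most called transcripts. Their mean was between the replicate 1 and replicate 3 means at 93.2% of the 1531 called probe sets, against 47.3% of all tested. Transcripts picked for a large difference between replicates 1 and 3 hold a middle value more often for that reason alone, so these shares are a description. On a scale where 0 is replicate 1 and 1 is replicate 3, the median place was 0.68 for probe sets called higher in replicate 3 and 0.49 for those called higher in replicate 1. Of the 16 called HIF members, 15 had a replicate 2 mean between, at a median place of 0.64, with BHLHE41 the exception at 1.02. All 8 called ribosome biogenesis members had it between, at a median place of 0.36, nearer to replicate 1. Tested directly, replicate 2 differed from replicate 1 at 180 probe sets (0.617%), 163 higher in replicate 2 (0.559%) and 17 higher in replicate 1 (0.0583%), with 4329 at an unadjusted p under 0.05 (14.8%). Replicate 3 differed from replicate 2 at 0 probe sets in limma (0% in either direction), with 3621 at an unadjusted p under 0.05 (12.4%). The 3 comparisons share arrays and are not independent of each other.

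**Figure D5:**
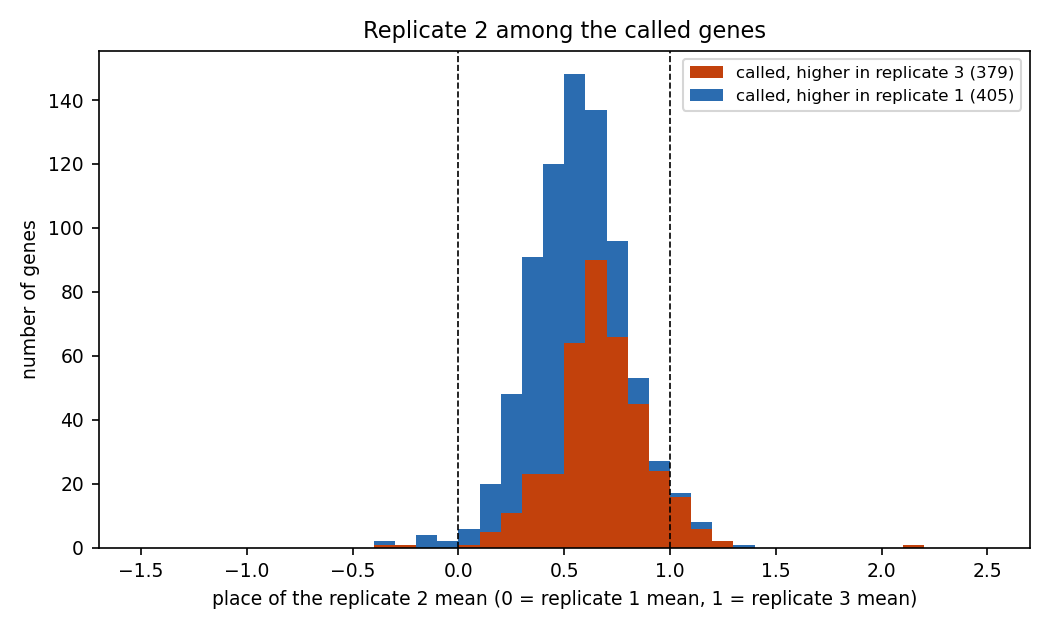
Place of the replicate 2 mean on a scale from the replicate 1 mean (0) to the replicate 3 mean (1) for the 784 called genes (vertical axis, number of genes), stacked for the 379 higher in replicate 3 (orange) and the 405 higher in replicate 1 (blue). Of these 352 and 394 lie between the dashed lines at 0 and 1, and FOSB stands farthest out on the right.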

How the data were processed

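Total RNA (500 ng for labelling, per the labels' protocols) was measured on 6 Affymetrix Human Gene 1.0 ST arrays. The authors deposited RMA signals, named so in the file headers and on the log2 scale, for which the submitters' processing notes name Affymetrix Expression Console 1.0. The build behind the annotation is not given in the sources used here. RMA makes the arrays' distributions equal, so a shift shared by most transcripts does not show. A second table held the same values.

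The 4114 control probe sets were left out of the tests. The 4 arrays of replicates 1 and 3 were fitted in R 4.3.3 with the lmFit and eBayes functions of limma 3.58.1 (plasmid plus replicate number; 1 residual and 5.60 prior degrees of freedom), two-sided, with Benjamini-Hochberg adjustment over 29183 probe sets and a threshold of 0.05. Each value rests on 2 arrays a side, whose number limits the precision. The p-values rest on how far the 2 plasmid pairs differ and on a spread pooled over all tested probe sets. They do not measure any spread beyond these arrays. Of the tested probe sets 19460 had 1 symbol, and the one with the highest mean stood for its gene. Symbols were updated by gene ID through a RefSeq table of GRCh38.p14. The median of the negative controls is not a detection limit.

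The arrays, the 35 gene lists and the rules were chosen with earlier results of these data known. Eligible to be named were the 15 called genes with the largest difference in each direction, for each list the 3 members of lowest p on either side at most, and ENO2, SLC7A11, TXNIP, VRTN, DNAJB1 and HSPH1. Other genes were chosen after their values were seen, and so were the classes of small RNA and zinc finger genes. Of the genes so eligible the text gives mainly those called, and 1 result is not reported here. Alternatives were all 6 arrays in the fit, no plasmid block, 3 other scalings, no dim probe sets, other variance priors, averaged probe sets, the second table, a minimum fold, each array left out and, added after seeing the data, identical probe sets counted once.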

Additional observations from a re-analysis of the deposited data

Results flagged for a closer look

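For 6 gene lists and 1 gene the difference between replicate 3 and replicate 1 had opposite signs with the 2 plasmids. Each value is 1 array minus 1 array, or the median of such values over the list, and the contrast between the plasmids was not tested. The median of the cholesterol list was 0.13 with VRTN and -0.0013 with the empty vector. Cyclin-dependent kinase inhibitors had medians of -0.093 and 0.00089. The inflammatory list stood at 0.0029 and -0.029, and the Notch targets at 0.024 and -0.010. HEK293T markers had medians of -0.079 and 0.014, and fibroblast markers of 0.016 and -0.15. DNAJB1, a co-chaperone that was not called between replicates, was 0.27 higher in replicate 3 with VRTN and 0.23 lower with the empty vector (-0.23).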

How the results depend on the processing

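No paired analysis was possible because the replicate numbers are themselves the groups compared; the arrays were matched by plasmid instead. Against 1531 calls (995 higher in replicate 3, 536 higher in replicate 1), cyclic loess gave 986 (755 and 231, or 76.6% higher in replicate 3 against 65.0%) and quantile scaling 799 (600 and 199, 75.1%). A minimum of 1.2-fold gave 201 (172 and 29), no plasmid block 533 (405 and 128), and no variance moderation in limma 0 (0 and 0, with 2819 at an unadjusted p under 0.05). A trended and robust prior gave 5211 (2626 and 2585), removal of the dimmest 40 percent 3985 (1919 and 2066) and averaged probe sets 1837 genes (774 and 1063 higher in replicate 1), so 50.4%, 48.2% and 42.1% were higher in replicate 3. The 1.2-fold minimum left 85.6% and no block 76.0% on that side. With each array left out the count was 21 to 354, with 21 to 283 higher in replicate 3 and 0 to 102 in replicate 1. Median centring (1327), all 6 arrays (1783), the second table (1531) and identical probe sets counted once (1338) stayed within 1.5 times. In each setting by probe set the 1531 kept their direction wherever tested, except 1 without VRTN replicate 1. The cause of these changes was not tested. Replicate 2 lay between at 93.2% of called probe sets, and at 78.1% when both its arrays had to. DNAJB1 (0.02) turned negative without VRTN replicate 1 (-0.14) and VRTN replicate 3 (-0.20), in a range of -0.20 to 0.23 over the arrays left out.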
